A study of Mus musculus with 6 samples.

Results

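The 10 genes described here encode the machinery that makes cyclic AMP (cAMP) and carries its signal in the mouse oocyte. They are the receptors Gpr3 and Gpr12, the stimulatory G protein gene Gnas, the adenylyl cyclases Adcy3 and Adcy9, the catalytic subunits Prkaca and Prkacb of protein kinase A (PKA), and its regulatory subunits Prkar1a, Prkar2a and Prkar2b. They were chosen by name, and all 10 were found by symbol among the 25631 genes of the deposited table. RNA was sequenced from oocytes that were punctured out of large antral follicles of naturally aged, 14-month-old female ICR mice after an injection of eCG, a gonadotropin that makes antral follicles grow. The control group (n = 3 libraries) came from untreated mice given water only. The mice of the aminophylline group (n = 3 libraries) had drinking water with 4.0 mM aminophylline for 1 week and then drank water alone for 3 weeks. Aminophylline is a theophylline salt that inhibits phosphodiesterases, the enzymes that break cAMP down, and the RNA was thus taken after a period without the drug. The numbers of oocytes and mice per library are not given in the sources used here, so p-values measure the spread between these libraries, which may in part be technical.

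As background, a fully grown oocyte waits in prophase of the first meiotic division until the ovulatory signal. GPR3, a receptor that is active without a known ligand, keeps the G protein Gs switched on, as its relative GPR12 can. Gs activates adenylyl cyclase, and the cAMP that forms binds the regulatory subunits of PKA and frees the catalytic ones. Active PKA holds CDK1 in check through the kinase WEE2 and the phosphatase CDC25B, and meiosis resumes when cAMP falls, largely through the phosphodiesterase PDE3A. These steps act on proteins, and transcript levels do not measure cAMP or kinase activity.

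The libraries held 14112341 to 33641283 reads, with the smallest total in control 2. Levels are given as FPKM, the fragments counted on a gene divided by its length and by the total of the library. Oocyte markers were abundant in all 6 libraries, with a summed FPKM from 18491 to 26383 over 12 genes. Of 13 granulosa and cumulus markers, 9 had a mean below 1 FPKM, and the defining genes Amh and Foxl2 were at or near 0. Of the same list, Cyp19a1 (7.37 to 15.7 FPKM), Nr5a2 (4.43 to 8.53 FPKM) and Cyp11a1 (1.81 to 3.35 FPKM) were present in all libraries. The summed FPKM of these 13 genes was 17.8 to 25.8 in control and 20.6 to 26.1 in aminophylline libraries. Of 10 macrophage markers, 8 were highest in control 1, where the list without C1qb summed to 128 FPKM against 2.94 to 4.24 in the other libraries, with Lyz2 at 66.4 FPKM in control 1 and at most 0.573 elsewhere. C1qb was at 72.3 FPKM in control 1 and 79.2 to 99.8 in the others. Of 8 theca and stroma markers, all had a mean below 1 FPKM. Of 3 endothelial markers 1 did, and the 3 erythrocyte markers had at most 3 reads in any library. The part of these other cells in the values below was not tested.

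The PKA target CREB binds the cAMP response element, and its sites near the start of the member genes are shown because a gene of this pathway can itself be a target of it. The search covered windows of 300 bases around RefSeq transcript starts (GRCm38.p6, the build of all positions here), 250 of them upstream, on both strands. The full element TGACGTCA was found in 2 of 24 member windows, both of Prkar1a and overlapping each other, and in 1.79% of all 32851 windows. The shorter element TGACG, or CGTCA on the other strand, which also lies inside the full element, was found in 11 of 24 member windows and in 20.8% of all windows. By gene, it was found in 7 of the 10 members and in 23.05% of all 27025 genes, and the full element in 2.03% of all genes. The 10 members have 24 windows, and the 27025 genes have 32851, so members have more windows each. Several of the member windows overlap, and the base composition was not matched. The stretches are written 5′ to 3′ on the strand of the gene, with the elements in capitals.
Gpr3, chr4:133212537-133212786, minus strand: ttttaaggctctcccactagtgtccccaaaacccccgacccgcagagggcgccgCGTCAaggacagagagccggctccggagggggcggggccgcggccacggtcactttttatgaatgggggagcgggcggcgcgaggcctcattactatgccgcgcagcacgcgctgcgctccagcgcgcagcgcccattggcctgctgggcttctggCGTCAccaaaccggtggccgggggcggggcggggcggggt
Prkaca, chr8:83972728-83972977, plus strand: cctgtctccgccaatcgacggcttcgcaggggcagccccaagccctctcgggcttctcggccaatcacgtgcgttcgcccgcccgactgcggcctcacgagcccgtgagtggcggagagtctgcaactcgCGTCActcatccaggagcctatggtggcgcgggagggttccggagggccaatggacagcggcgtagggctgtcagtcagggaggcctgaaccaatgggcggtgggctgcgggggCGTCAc
Prkar1a, chr11:109650889-109650918, plus strand: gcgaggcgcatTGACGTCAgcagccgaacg
The Gpr3 and Prkaca stretches are the 250 bases before the start, each with a pair of short elements. The Prkar1a stretch lies 60 to 31 bases before one of its starts and holds the full element. No binding was measured, and a match of letters is a description of the sequence.

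The members spanned a wide range of levels. Over the 6 libraries, the mean was highest for Prkar1a (21.8 FPKM), followed by Gpr3 (13.2), Gnas (12.2), Prkar2a (8.76), Prkar2b (5.07), Prkaca (2.0), Adcy9 (1.02), Prkacb (0.582), Gpr12 (0.422) and Adcy3 (0.155). Each neighbouring pair in this order kept its order in all 6 libraries, except Gpr3 and Gnas, which kept it in 3 of 6, and Prkacb and Gpr12, which kept it in 5 of 6. The ranges over libraries overlapped for every neighbouring pair. The order also depends on the gene length behind each FPKM, for Prkacb 5145 bases where its exons in GENCODE M21 cover 8772. Of the 10 genes, 6 were at or above 1 FPKM in all libraries and 3 (Gpr12, Adcy3 and Prkacb) were below it in all. Prkar1a ranked between percentiles 86.7 and 90.7 of all listed genes, and Adcy3 between 33.1 and 47.1.

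**Figure D1:**
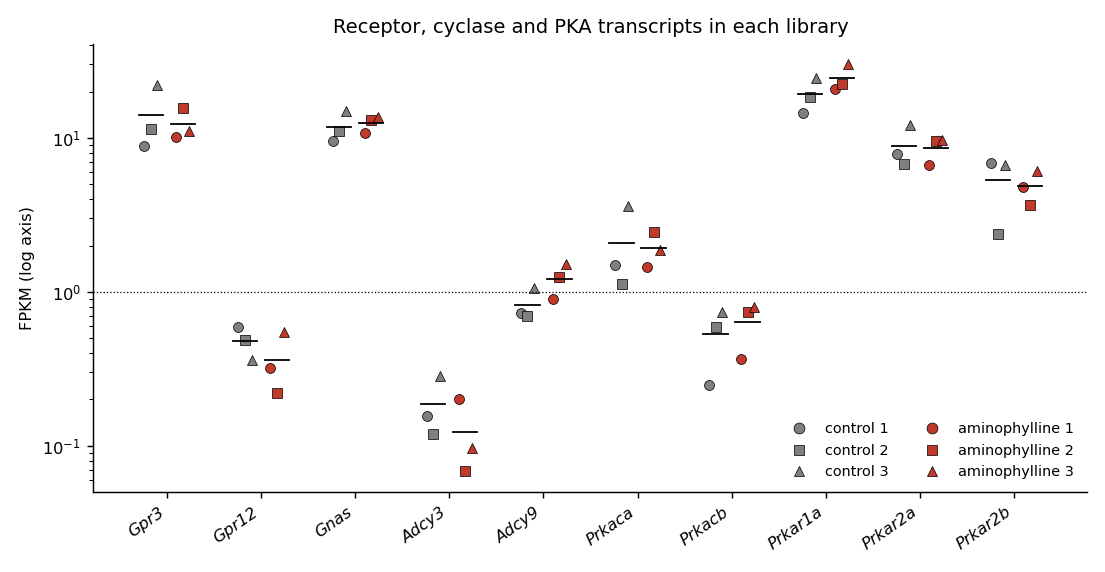
FPKM of the 10 genes in each library on a log axis, with control in grey, aminophylline in red, a symbol for each library number, the group mean as a bar and a dotted line at 1 FPKM. The groups overlapped for all 10 genes, and the means ran from 0.155 FPKM for Adcy3 to 21.8 FPKM for Prkar1a.

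No member passed a test of the difference between the groups. Of the 10 genes, 7 passed the filter of at least 1 FPKM in at least 3 of 6 libraries, and 0 of these 7 reached an unadjusted p of 0.05 in limma, against 7.25% of all 10340 genes tested. After Benjamini-Hochberg adjustment in limma, 0% of all genes tested passed 0.05. For 0 of the 10 members were the groups fully apart, against 12.5% of the genes tested. The median difference of the 7 genes, on the scale of log2(FPKM + 1) and aminophylline minus control, was -0.01, and that of all genes tested was 0.10, so that a member at 0 lay below the middle of all genes. This scale understates the change of genes with low levels. In bulk RNA, fewer cells that carry a transcript and less of it per cell cannot be told apart.

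Gpr3 encodes the receptor that starts the pathway. It lies on the minus strand of chromosome 4 (chr4:133209340-133212536), and its FPKM was 8.81, 11.4 and 22.2 in control libraries 1 to 3 and 10.2, 15.5 and 11.1 in aminophylline libraries 1 to 3. Control 3 was the highest and control 1 the lowest, with all aminophylline libraries between them. The mean was 14.1 ± 7.12 FPKM (SD, n = 3) in control and 12.3 ± 2.86 (SD, n = 3) with aminophylline. The difference was -0.11 log2 units (SE 0.30, 95% interval -0.78 to 0.56). An exact two-sided permutation test gave p = 0.8 for Gpr3, where the smallest p that 3 against 3 libraries allow is 0.1. The sign depended on control 3, without which the difference was 0.25. Exons of Gpr3 share 204 bases with exons of Cd164l2 on the opposite strand, a transcript at 599 to 855 FPKM. The strand setting of the counting is not given in the sources used here, so reads in the shared stretch cannot be assigned to either gene. Cd164l2 was at 639 FPKM in control 3, where Gpr3 was highest, and the part of Cd164l2 reads in the values of Gpr3 was not tested.

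Gpr12 encodes the related receptor (chr5:146582150-146586465). It measured 0.595, 0.486 and 0.362 FPKM in control and 0.321, 0.222 and 0.547 FPKM in aminophylline libraries, from 20 to 73 reads. The groups overlapped, since aminophylline 3 lay above control 2 and 3. Gpr3 exceeded Gpr12 by 14.8 times in control 1 up to 70.1 times in aminophylline 2. The ratio averaged 33.2 ± 24.8 (SD, n = 3) in control and 40.7 ± 26.1 (SD, n = 3) in aminophylline libraries, a difference smaller than the spread within either group. In aminophylline 2, the 20 reads of Gpr12 have a 95% exact Poisson interval of 12.2 to 30.9 reads, which covers counting error only.

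Gnas encodes the alpha subunit of Gs (chr2:174284320-174346744). Its FPKM was 9.61, 11.02 and 14.9 in control and 10.8, 13.1 and 13.6 in aminophylline libraries. All 3 aminophylline values lay between the lowest and the highest control. The means were 11.8 ± 2.75 and 12.5 ± 1.5 FPKM (SD, n = 3 each), with a difference of 0.09 log2 units (SE 0.22, 95% interval -0.39 to 0.56). The locus makes several transcripts from different starts, and the deposited table gives them 1 value, divided by a length of 8277 bases, as recovered from the values. Its exons share 988 bases with Nespas and 1469 bases with Gm20721 on the opposite strand, whose reads cannot be told apart from those of Gnas without strand. The levels of Gnas and Gpr3, close to each other in FPKM, thus rest on lengths of 8277 and 2143 bases.

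Adcy9 and Adcy3 are the cyclases among the members, enzymes that turn ATP into cAMP. Adcy9 (chr16:4284886-4437236) was at 0.729, 0.698 and 1.06 FPKM in control and 0.898, 1.24 and 1.51 in aminophylline libraries. Aminophylline 2 and 3 lay above all controls and aminophylline 1 below control 3, and each aminophylline library lay above the same-numbered control. The means were 0.828 ± 0.199 and 1.22 ± 0.307 FPKM (SD, n = 3 each), and the difference was 0.27 log2 units (SE 0.19, 95% interval -0.15 to 0.70). Limma gave it an unadjusted p of 0.18 and a Benjamini-Hochberg adjusted p of 0.728. On the log2 scale its difference was 0.50 with a pseudocount of 0.1, 0.53 with voom on recovered reads and 0.13 after quantile normalization. Adcy9 passed the filter through 3 libraries, 2 of them from the aminophylline group.

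Adcy3 (chr12:4133116-4213525) was at 0.157, 0.120 and 0.285 FPKM in control and 0.202, 0.0682 and 0.0966 in aminophylline libraries. The groups overlapped, with aminophylline 1 above control 1 and 2. These values rest on 8 to 43 reads, and the 8 reads in control 2 have a 95% exact Poisson interval of 3.45 to 15.8. Adcy3 shares 1380 exonic bases with Cenpo on the opposite strand, a transcript at 19.4 to 29.7 FPKM, so that part of these reads may not be its own. The ratio of Adcy9 to Adcy3 was 4.73 ± 1.07 (SD, n = 3) in control and 12.8 ± 7.32 (SD, n = 3) with aminophylline, where aminophylline 1 (4.45) lay among the controls and the other libraries, at 18.2 and 15.6, did not.

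Among the cyclases that are no members, Adcy8, a calcium-stimulated cyclase, had the highest level, with 3.56, 4.15 and 3.51 FPKM in control and 4.33, 4.41 and 3.13 in aminophylline libraries. It made up 42.1% to 60.0% of the summed FPKM of the 9 cyclases listed, against 10.01% to 20.3% for Adcy9 and 0.820% to 4.05% for Adcy3. These shares depend on the gene lengths behind the FPKM. For Adcy9 that length was 9547 bases, where its exons in GENCODE M21 cover 5197. Adcy5 averaged 1.19 FPKM, Adcy10 0.487 and Adcy1 0.451, and Adcy6, Adcy7 and Adcy2 were below 0.1 FPKM in all libraries. The difference of Adcy8 between the groups was 0.06 log2 units (SE 0.22, 95% interval -0.42 to 0.53), and the ranges overlapped.

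**Figure D2:**
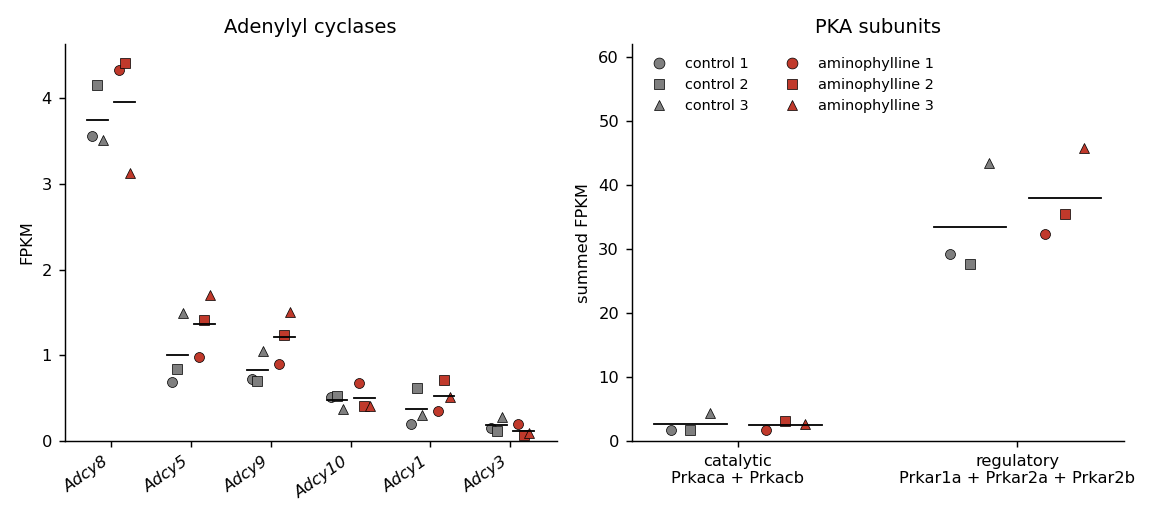
Left, FPKM of the 6 cyclases with a mean above 0.1 FPKM, and right, summed FPKM of the catalytic and the regulatory PKA subunits, in each library (control grey, aminophylline red) with the group mean as a bar. Adcy8 stood above the other cyclases in all libraries, and the regulatory sum exceeded the catalytic sum by 9.96 to 17.7 times.

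Prkaca and Prkacb encode the catalytic subunits, which phosphorylate the targets of PKA. Prkaca (chr8:83972978-83996444) was at 1.496, 1.13 and 3.62 FPKM in control and 1.46, 2.43 and 1.87 in aminophylline libraries. Control 3 was the highest library and control 2 the lowest, and the aminophylline libraries lay between them. The means were 2.08 ± 1.34 and 1.92 ± 0.491 FPKM (SD, n = 3 each), with a difference of -0.01 log2 units (SE 0.29, 95% interval -0.64 to 0.63). Without control 3 it was 0.33.

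Prkacb (chr3:146729579-146812946) was at 0.248, 0.592 and 0.746 FPKM in control and 0.365, 0.737 and 0.801 in aminophylline libraries, from 43 to 126 reads. In both groups library 1 was the lowest and library 3 the highest, and the groups overlapped, although each aminophylline library lay above the same-numbered control. Prkaca exceeded Prkacb in every library, by 1.91 to 6.02 times.

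Prkar1a encodes the type I regulatory subunit RIα (chr11:109649023-109669663). It was the member with the highest level and the widest gap between group means in FPKM. With a pseudocount of 0.1, however, the log2 difference of Adcy9 (0.50) was larger than that of Prkar1a (0.36). The FPKM of Prkar1a was 14.5, 18.5 and 24.6 in control and 20.8, 22.4 and 30.1 in aminophylline libraries. Each aminophylline library lay above the same-numbered control, but control 3 exceeded aminophylline 1 and 2. Adcy9, Prkacb and Prkar1a were the 3 of 10 members higher in all 3 numbered pairs, as 25.9% of all genes tested were. The means were 19.2 ± 5.11 and 24.4 ± 4.95 FPKM (SD, n = 3 each), about 1 SD apart. The difference was 0.34 log2 units (SE 0.23, 95% interval -0.16 to 0.85), which is 0.25 above the median of all genes. Limma gave an unadjusted p of 0.161 and a Benjamini-Hochberg adjusted p of 0.728, and an exact two-sided permutation test over the 6 libraries gave p = 0.3. Without control 3 the difference was 0.53 with an unadjusted p of 0.0352 in limma, the only setting in which any member passed that threshold. It was 0.17 without control 1 and 0.19 without aminophylline 3, both with an unadjusted p of 0.48 in limma.

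Prkar2a encodes the type II subunit RIIα, which binds anchoring proteins (chr9:108692143-108750444). Its FPKM was 7.82, 6.74 and 12.1 in control and 6.70, 9.51 and 9.66 in aminophylline libraries, with control 3 the highest and aminophylline 1 the lowest. The means were 8.89 ± 2.84 and 8.62 ± 1.67 FPKM (SD, n = 3 each), with a difference of -0.02 log2 units (SE 0.25, 95% interval -0.57 to 0.54). Prkar2b, for RIIβ (chr12:31958450-32061648), was at 6.82, 2.38 and 6.70 FPKM in control and 4.82, 3.65 and 6.06 in aminophylline libraries. Control 2, the library with the fewest reads, was the lowest for Prkar2b, with 128 reads, and the other controls were the highest. The means were 5.30 ± 2.53 and 4.85 ± 1.21 FPKM (SD, n = 3 each), with a difference of -0.03 log2 units (SE 0.33, 95% interval -0.75 to 0.70).

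Summed over the subunits, the transcripts for regulatory subunits exceeded those for catalytic subunits in every library. The regulatory sum was 29.2, 27.6 and 43.5 FPKM in control and 32.3, 35.5 and 45.8 FPKM in aminophylline libraries. The catalytic sum was 1.74, 1.72 and 4.36 FPKM in control and 1.82, 3.17 and 2.67 FPKM in aminophylline libraries. The ratio of catalytic to regulatory transcripts was 0.0742 ± 0.0227 (SD, n = 3) in control and 0.0680 ± 0.0185 (SD, n = 3) with aminophylline, which is within the spread. The sign of its log2 difference, -0.12, turned without control 3 (0.12). The ratio of type I to type II regulatory transcripts was 0.991, 2.03 and 1.31 in control and 1.81, 1.70 and 1.91 in aminophylline libraries, so that the aminophylline libraries lay close together inside the control range.

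For 7 of the 10 members the SD of the control libraries was larger than the gap between the group means in FPKM, the exceptions being Gpr12, Adcy9 and Prkar1a. Control 3 was the highest of the controls for 8 of the 10 members, as it was for 51.2% of all genes tested. Over all 6 libraries it was highest for 5 of the 10 members and for 24.4% of the genes tested. Without control 3, all 7 members tested had a positive difference, from 0.16 for Prkar2b to 0.53 for Prkar1a, while the median of all genes tested was 0.13. Control 3 lay above the control mean for each of these members, so leaving it out raises every difference. The shared sign therefore carries no weight. Without control 1 the difference was -0.37 for Gpr3, -0.12 for Prkaca, -0.08 for Prkar2a and -0.04 for Gnas. It was 0.17 for Prkar1a, 0.18 for Prkar2b and 0.24 for Adcy9. The 5 genes whose log2(FPKM + 1) was most like that of Gpr3 over the 6 libraries, out of 4271 genes with a mean of at least 10 FPKM, were Tex19.1 (Pearson r = 0.989), Slc10a6 (0.971), Anxa7 (0.967), Lpcat1 (0.966) and Tmbim1 (0.961). Of the 4271 genes, 44 had an r above 0.9. These genes were picked for their likeness in the same 6 libraries, which also differ in depth, and the values are a description.

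**Figure D3:**
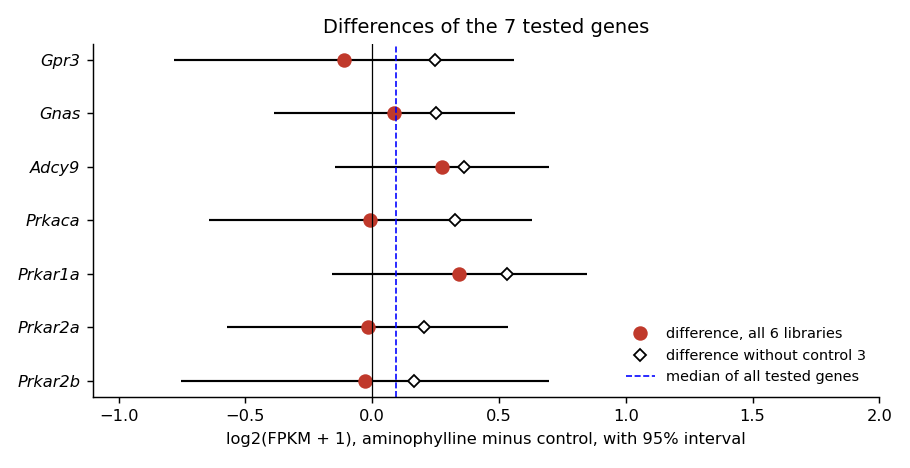
Difference on the log2(FPKM + 1) scale, aminophylline minus control, of the 7 members tested, as red points with 95% intervals from limma over all 6 libraries, and as open diamonds without control 3. All intervals include 0, the dashed line marks the median of all genes tested (0.10), and all diamonds lie to the right of 0. Control 3 lay above the control mean for each member tested, so leaving it out moves every diamond to the right.

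The rest of the pathway was followed through 10 lists of 99 other genes, of which 94 were found and 44 passed the filter. Of these 44 genes, 1 was higher and 3 were lower with aminophylline at an unadjusted p of 0.05 in limma, 9.09% of the genes tested. Over all genes tested the shares were 7.25% in both directions, 4.41% higher and 2.84% lower. None passed after Benjamini-Hochberg adjustment in limma, where the smallest adjusted p among them was 0.676. The libraries of the groups were fully apart for 7 of the 44 genes (15.9%, against 12.5% of all genes tested). The median difference of the 44 genes was 0.13 log2 units, against 0.10 over all genes. In a fit with the replicate number as a block, 8 of the 44 genes passed the unadjusted threshold (5 higher and 3 lower), against 14.2% of all genes tested. In that fit 0.455% of all genes tested passed a Benjamini-Hochberg adjusted p of 0.05 in limma, among them no member and none of the 44. The count of 4 became 12 without control 3, where 14.3% of all genes tested passed, and 7 without control 2, where 15.6% did. It became 2 without control 1 (3.57% of all genes), 2 without aminophylline 2 (3.18%) and 1 without aminophylline 1 (6.81%).

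**Figure D4:**
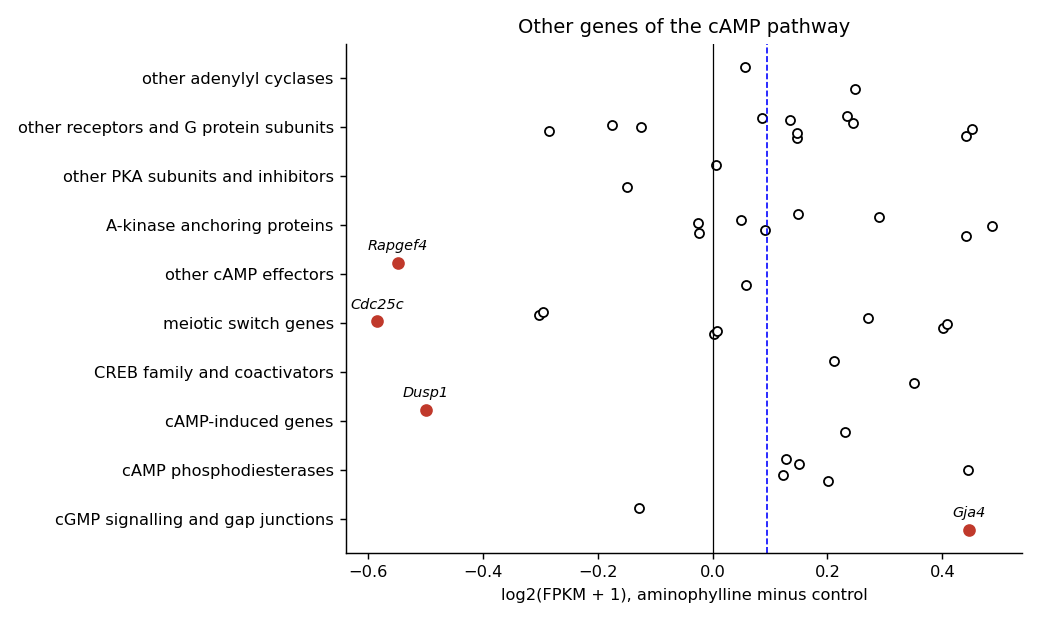
Difference on the log2(FPKM + 1) scale, aminophylline minus control, for each of the 44 other pathway genes tested, by list. Filled red points mark the 4 genes with an unadjusted p below 0.05 in limma, open points the other genes, and the dashed line the median of all genes tested (0.10).

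Cdc25c, 1 of 8 genes of the meiotic switch around CDK1, encodes a phosphatase that activates CDK1. Its FPKM was 5.56, 6.11 and 7.68 in control and 3.51, 3.73 and 4.64 in aminophylline libraries. All aminophylline libraries lay below all controls. The means were 6.45 ± 1.10 and 3.96 ± 0.604 FPKM (SD, n = 3 each). Limma gave a difference of -0.58 log2 units (SE 0.22, unadjusted p = 0.0221, Benjamini-Hochberg adjusted p = 0.682), and adjusted p ranged from 0.192 to 0.999 over the alternative settings. The exact permutation test gave p = 0.1, the smallest that it can give. The call was lost without control 3, aminophylline 1 or aminophylline 2, with unadjusted p from limma of 0.0633, 0.0835 and 0.0741. None of the other 7 genes of this list passed. Cdk1 itself was at 48.7, 46.9 and 51.1 FPKM in control and 56.7, 61.8 and 59.2 in aminophylline libraries, so that all aminophylline libraries lay above all controls, with a difference of 0.27 log2 units (SE 0.15) and an unadjusted p of 0.104 in limma. The others include Wee2 (106 to 172 FPKM), Cdc25b (4.49 to 10.9 FPKM) and Ccnb1, for cyclin B1, which had the highest mean of the list with 835 FPKM and a difference of -0.30 log2 units (SE 0.18).

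Dusp1 encodes a phosphatase that inactivates MAP kinases and is induced by cAMP in many cells. Its FPKM was 65.1, 63.3 and 78.9 in control and 42.9, 54.7 and 48.2 in aminophylline libraries, and all aminophylline libraries lay below all controls. The difference was -0.50 log2 units (SE 0.17), with an unadjusted p of 0.014 and a Benjamini-Hochberg adjusted p of 0.676 in limma (0.166 to 0.999 over the alternative settings). The call was lost without aminophylline 1 (unadjusted p of 0.0813 in limma). Of the 13 genes of the cAMP-induced list, 12 were found, 10 of these had a mean below 1 FPKM, and Egr1, the other gene tested, ranged from 0.761 to 2.59 FPKM with overlapping groups.

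Rapgef4 encodes EPAC2, which senses cAMP without PKA by activating the GTPase Rap. Its FPKM was 3.48, 1.90 and 2.08 in control and 1.33, 1.14 and 1.58 in aminophylline libraries. All aminophylline libraries lay below all controls, and control 1, with the macrophage transcripts, was the highest. The difference was -0.55 log2 units (SE 0.23), with an unadjusted p of 0.0332 and a Benjamini-Hochberg adjusted p of 0.682 in limma (0.142 to 0.999 over the alternative settings). With voom it was -0.87. Without control 1 it was -0.35 with an unadjusted p of 0.125, and the call was also lost without aminophylline 1 (0.0691) or aminophylline 2 (0.116) and in an unmoderated model (0.0607). Its relative Rapgef3, for EPAC1, had the highest mean of the effector list with 2.42 FPKM and a difference of 0.06 log2 units (SE 0.21).

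Gja4 encodes connexin 37, the protein of the gap junctions through which granulosa cells pass cyclic GMP, an inhibitor of PDE3A, to the oocyte. Its FPKM was 144, 212 and 238 in control and 266, 234 and 297 in aminophylline libraries. The groups overlapped, since control 3 lay above aminophylline 2, and control 1 was the lowest. The means were 198 ± 48.8 and 266 ± 31.6 FPKM (SD, n = 3 each), with a difference of 0.45 log2 units (SE 0.20), an unadjusted p of 0.0478 and a Benjamini-Hochberg adjusted p of 0.684 in limma (0.184 to 0.999 over the alternative settings). Without control 1 it was 0.23 with an unadjusted p of 0.196, and the call was also lost without aminophylline 1 (0.0969) or aminophylline 3 (0.148) and under TPM (0.0803), quantile normalization (0.106), median centring (0.126), no filter (0.0797) and an unmoderated model (0.137). In the rest of this list of cGMP signalling and gap junction genes, Prkg1 was at 9.13 to 11.5 FPKM, and Nppc, Npr2, Gja1 and Pde5a had means below 1 FPKM.

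**Figure D5:**
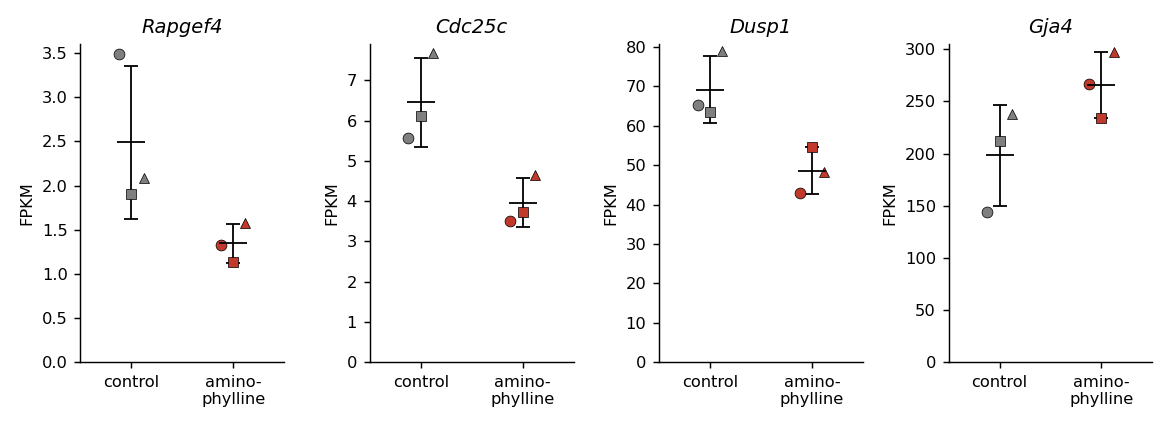
FPKM of the 4 other pathway genes with an unadjusted p below 0.05 in limma, with a symbol for each library (control grey, aminophylline red) and the mean with its SD (n = 3). The groups are separate for Rapgef4, Cdc25c and Dusp1 and overlap for Gja4.

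In the other 6 lists no gene passed an unadjusted p of 0.05 in the main limma fit. Among 11 receptor and G protein genes tested, the highest was Rgs2, which encodes an inhibitor of G protein signalling, with 549, 498 and 489 FPKM in control and 571, 635 and 600 in aminophylline libraries. All aminophylline libraries lay above all controls for Rgs2, with a difference of 0.23 log2 units (SE 0.14) and an unadjusted p of 0.13. In the same list Gnai2, for an inhibitory G protein subunit, and Gnb2, for a beta subunit, had differences of 0.44 and 0.45 log2 units (SE 0.31 and 0.23). Neither passed the unadjusted threshold in the main fit (unadjusted p of 0.188 and 0.0728 in limma). With the block both passed it (unadjusted p of 0.0482 and 0.0269 in limma). Gnb2 passed the filter only through control 3 (1.14 FPKM), aminophylline 2 (2.08) and aminophylline 3 (1.62).

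Of 5 other PKA subunits and inhibitors, 2 were tested. Pkig, which encodes a PKA inhibitor, was the highest at 40.1 to 57.9 FPKM, above the summed catalytic subunits of any library. Its difference was 0.01 log2 units (SE 0.20). The regulatory gene Prkar1b had at most 2 reads in any library.

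Among 8 anchoring protein genes tested, Akap1, which tethers PKA to mitochondria, was the highest. Its FPKM was 12.7, 10.99 and 27.7 in control and 15.4, 21.9 and 30.5 in aminophylline libraries, with overlapping groups and library 3 the highest in both. Akap1 and Akap8l had differences of 0.44 and 0.49 log2 units (SE 0.33 and 0.23). In the main fit they did not pass the unadjusted threshold (unadjusted p of 0.212 and 0.062 in limma), and with the block they did (0.0366 and 0.0286).

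Of the 16 phosphodiesterase genes of the list, 5 were tested and the highest was Pde3a. It was at 2.74, 1.63 and 5.29 FPKM in control and 2.996, 4.35 and 6.31 in aminophylline libraries, with overlapping groups and a difference of 0.44 log2 units (SE 0.33, unadjusted p = 0.208 in limma). Of 8 CREB family and coactivator genes, 6 had a mean below 1 FPKM, Creb1 and Crem among them. Atf1, a relative of CREB, was the highest with a mean of 8.86 FPKM and a difference of 0.35 log2 units (SE 0.35).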

How the data were processed

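The authors deposited FPKM values per gene for the 6 libraries, that is, fragment counts over gene length and library total, with no other scaling between libraries. The submitters' processing notes name the genome build GRCm38 (mm10), and the aligner and counting program are not given in the sources used here. Gene positions, promoters and their sequences are from RefSeq on GRCm38.p6, and overlaps of exons from GENCODE M21 on GRCm38. Reads were recovered from the whole-number ratios between libraries (tolerance 0.001 reads), which gave whole reads for 100% of 22583 genes (those with a value above 0 in 2 or more libraries), and 99.573% to 99.631% of each total lay on the listed genes.

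Groups were taken from the labels. The members and all gene lists were chosen with earlier results of these data known. Differences were tested with limma 3.58.1 under R 4.3.3, two-sided, on log2(FPKM + 1), where the variances were moderated toward a trend with the mean level, over all 10340 genes with at least 1 FPKM in at least 3 of 6 libraries, with Benjamini-Hochberg adjustment over these genes. The named genes are the members, every gene of the other lists with an unadjusted p below 0.05, with or without the block, the gene with the highest mean of each list, and the 5 genes most like Gpr3. Genes outside this rule (Cd164l2, Cenpo, Nespas, Gm20721, the other cyclases, markers and single members of the lists) were named after their values were seen. Because the table holds FPKM, no count model was the main test, and limma's voom on the recovered reads was run as an alternative. The code was tested on simulated data. Python 3.11.15, pandas 2.3.3, scipy 1.17.1 and matplotlib 3.10.9 were used.

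Both groups are numbered 1 to 3 in the labels, and no source says that same-numbered libraries share mice or a preparation. After the group means were taken off, libraries with the same number correlated at 0.14, 0.14 and 0.55 over the genes tested, all above 0.1. Control 2 correlated at 0.42 with aminophylline 1, more than with aminophylline 2 (0.14), so the correlations do not single out the numbered pairing. The numbers were used as a block in an alternative fit, where the pairing is an assumption. Values with the replicate block are printed where they change a call or a count.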

Additional observations from a re-analysis of the deposited data

How the results depend on the processing

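The count of 0 members past an unadjusted p of 0.05 in limma held under a pseudocount of 0.1, no filter, a mean of at least 5 FPKM, TPM, quantile normalization, median centring, an unmoderated model, the replicate block, library weights and voom, and leaving out 1 library gave 0 to 1. The count of 4 other pathway genes became 7 without a filter (5.48% of all genes passed), 10 with library weights (19.4%) and 8 with the replicate block (14.2%), and 1 to 12 when 1 library was left out (3.18% to 15.6%). Without a filter 25631 genes entered the fit, with all 94 pathway genes found instead of 44, so 7 is no rise against 4 of 44. With the replicate block and median centring together, chosen after seeing the data, the count of other pathway genes was 5. The replicate block changed no call of a member. With library weights the differences of Gpr3, Prkaca and Prkar2a became 0.23, 0.19 and 0.10, and with the pseudocount of 0.1 that of Prkaca became 0.029. When 1 library was left out, differences ranged from -0.37 to 0.25 for Gpr3, -0.041 to 0.25 for Gnas, -0.23 to 0.33 for Prkaca, -0.18 to 0.20 for Prkar2a, -0.43 to 0.18 for Prkar2b, 0.18 to 0.38 for Adcy9 and 0.17 to 0.53 for Prkar1a. The signs of the first 5 turned without control 3 (all of these but Gnas), without aminophylline 1 (Gpr3 at 0.00052, Prkaca and Prkar2a), without control 1 (Gnas and Prkar2b) and without aminophylline 2 (Prkar2b). The cause of these changes was not tested. The number of members at or above 1 FPKM in all libraries stayed within 1.5 times of 6 under TPM, quantile normalization and median centring. The log2 difference in the catalytic to regulatory ratio was -0.12, and leaving out 1 library gave -0.33 (without aminophylline 2) to 0.12 (without control 3), with the sign also turned, at 2.6e-05, without aminophylline 1. Of all genes past an unadjusted p of 0.05 in limma, 60.8% were higher with aminophylline, against 49.1% for TPM values, 39.7% after quantile normalization and 35.9% after median centring, where 0 genes passed a Benjamini-Hochberg adjusted p of 0.05. The 3 members below the filter rest on 8 to 126 reads per library and were tested only without the filter.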
